A study of Sus scrofa with 8 samples.

Results

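The matrix metalloproteinases (MMPs), the ADAM, ADAMTS and ADAMTSL proteins and the tissue inhibitors of metalloproteinases (TIMPs) were described in hearts of wild-type miniature pigs. Members were the rows of the gene table whose symbol begins with MMP, TIMP, ADAM, ADAMTS or ADAMTSL followed by a digit, which gave 66 of 31014 genes. The 66 were 20 MMPs, 18 ADAMs, 19 ADAMTS genes, 5 ADAMTSL genes and 4 TIMPs. Heart tissue came from pigs given vehicle (n = 3 samples) or doxorubicin (n = 5 samples). Doxorubicin is an anthracycline used against cancer that is known to damage heart muscle. Both groups carried the wild-type genotype. The sources used here do not give the dose, schedule, age, sex or the part of the heart taken. Nothing in the labels states that each sample is a different animal, and the p-values therefore cover only the variation among the 8 samples, which may be technical.

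MMPs are zinc-dependent proteases, secreted or held at the cell surface, that cut collagens, gelatins, proteoglycans and other matrix proteins. Most are made as inactive precursors and need removal of a propeptide, by furin-type convertases, by plasmin or by another MMP. ADAMs are membrane-bound relatives, several of which release the outer part of membrane proteins such as growth factor precursors, Notch receptors and cadherins. ADAMTS proteases are secreted, and some trim procollagens while others cut aggrecan and versican. ADAMTSL proteins resemble the non-catalytic part of ADAMTS proteins and have no protease domain. TIMPs bind the active site of these enzymes and block them. TIMP2 also takes part, with MMP14, in the activation of the MMP2 precursor at the cell surface, and TIMP3 stays bound to the matrix and inhibits ADAMs and ADAMTS proteases as well as MMPs. Turnover of the collagen network by these enzymes is a known feature of the remodelling heart. Transcript levels do not measure protein, activation or protease activity.

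Library totals were 16105242 to 17195538 counts in vehicle and 17442566 to 18267178 after doxorubicin. Doxorubicin 5 correlated less with its group (mean 0.912) than doxorubicin 1 to 4 did (0.941 to 0.956), and results that rest on it are given with and without it. The tissue label was checked against cardiomyocyte genes, of which 7 of 8 were found under their symbols, at a summed level of 55934 to 62110 CPM (counts scaled to library size, in units of 1e+06 reads) in vehicle and 32089 to 57645 CPM after doxorubicin. Counts of the 66 members made up 0.103% to 0.125% of all counts in vehicle and 0.171% to 0.316% after doxorubicin. In bulk tissue, a change in the number of cells of a type and a change in RNA per cell cannot be told apart.

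Of the 66 members, 50 had enough reads to be tested, and 22 of them rose after doxorubicin, 1 fell and 27 did not pass. A gene was counted as risen or fallen at a Benjamini-Hochberg adjusted p under 0.05 in edgeR's quasi-likelihood test over all 14938 tested genes, of which 24.9% passed, 13.6% higher and 11.3% lower. The median log2 fold change of the 50 members was 0.81, against 0.02 over all tested genes. The doxorubicin libraries all lay above the vehicle libraries for 23 members and all below them for 2, and the groups overlapped for 25; over all tested genes 34.9% had groups that did not overlap, 17.1% higher and 17.8% lower. A low read count decides in part who is tested. For 4 tested members (ADAM12, ADAMTS16, MMP25 and MMP9) no vehicle library reached the level the filter asks for (0.564 CPM), so they were tested through their doxorubicin reads. With ADAM8, ADAMTS8, ADAMTS17 and ADAMTS19, 8 tested members had a vehicle library under that level and were tested with the help of doxorubicin reads. Of these 8, 4 (ADAM12, ADAMTS8, ADAMTS17 and MMP25) were among the 22 that rose. Of the 16 members not tested, 5 had no read in any library (ADAM29, ADAM30, ADAM3A, MMP3 and MMP7) and 11 had few.

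**Figure D1:**
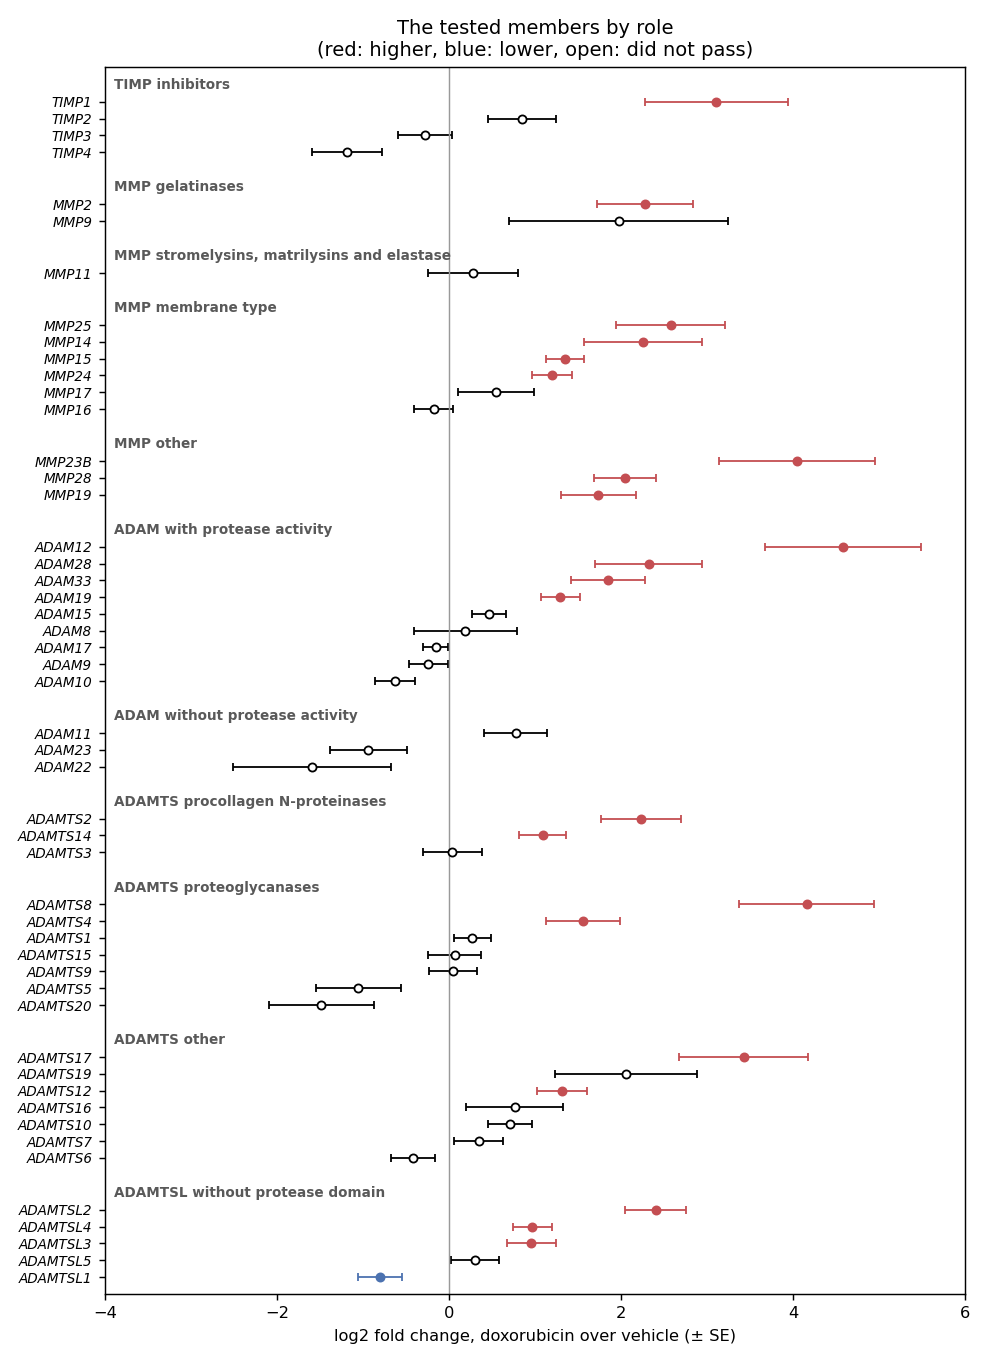
Log2 fold change of doxorubicin over vehicle (points, with bars of 1 SE) for the 50 tested members, grouped by role. Filled red points rose (22), the filled blue point fell (ADAMTSL1) and open points did not pass; 11 of the 12 MMPs lie right of zero, while the 4 TIMPs spread from −1.19 to 3.11.

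The 4 inhibitors did not move together. TIMP1, a secreted inhibitor known to be induced in scarring tissue, was at 8.79, 9.15 and 12.6 CPM in vehicle 1 to 3 and at 26.8, 48.1, 162, 17.2 and 184 CPM in doxorubicin 1 to 5. Every doxorubicin library lay above every vehicle library, with doxorubicin 3 and 5 far above the other 3. TIMP1 rose 8.62-fold (log2 fold change 3.11, SE 0.83, adjusted p = 0.0271), from 10.2 ± 2.10 to 87.7 ± 79.2 CPM (SD, n = 3 and n = 5). Without doxorubicin 5 the difference was 6.26-fold and no longer passed (adjusted p = 0.0539). Leaving out any 1 of the 3 vehicle libraries also ended the call, with a highest adjusted p of 0.105 (without vehicle 1), as did testing without a read filter (0.0875). TIMP1 lies on chromosome X from 42103251 to 42106289 of the Sscrofa11.1 assembly.

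TIMP2, the inhibitor that also assists MMP2 activation, was at 128, 113 and 126 CPM in vehicle and at 174, 150, 324, 97.9 and 352 CPM after doxorubicin. Doxorubicin 4 lay below the vehicle libraries and the other 4 above them, so the groups overlapped. Its log2 fold change of 0.85 (SE 0.39) did not pass (adjusted p = 0.135). Without doxorubicin 4 it was 1.03 and passed (adjusted p = 0.0481).

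TIMP3, the inhibitor bound to the matrix, was at 481, 343 and 424 CPM in vehicle and at 448, 269, 445, 379 and 168 CPM after doxorubicin. The groups overlapped, with doxorubicin 5 lowest of all. The log2 fold change was −0.28 (SE 0.31, adjusted p = 0.529), and its sign turned to 0.075 when libraries were scaled by total counts only. TIMP4, known as the TIMP most restricted to heart and a few other tissues, was at 12.9, 18.1 and 18.3 CPM in vehicle and at 9.17, 4.90, 6.54, 12.8 and 2.70 CPM after doxorubicin. Every doxorubicin library lay below every vehicle library, though doxorubicin 4 nearly reached vehicle 1. The log2 fold change of −1.19 (SE 0.41) did not pass (adjusted p = 0.0588). It passed without doxorubicin 5 (−0.98, adjusted p = 0.0338), without doxorubicin 4 (−1.5, adjusted p = 0.023) in DESeq2 (adjusted p = 0.0254) and in limma voom (−1.37, adjusted p = 0.00163).

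The deposited annotation places 3 of the inhibitors inside another gene on the opposite strand: TIMP1 inside SYN1, TIMP3 inside SYN3 and TIMP4 inside SYN2, all synapsin genes. How counting treated the strand is unknown here, so reads of such pairs cannot be told apart. SYN1 was counted at 19.0 to 48.0 CPM over the 8 libraries, with a log2 fold change of 0.33 (edgeR adjusted p = 0.386). TIMP1 lay under all SYN1 values in every vehicle library (8.79 to 12.6 CPM), so its vehicle level is the most open to shared reads. SYN3 had a mean of 1.23 CPM and SYN2 a mean of 0.276 CPM, far under the inhibitors they enclose.

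**Figure D2:**
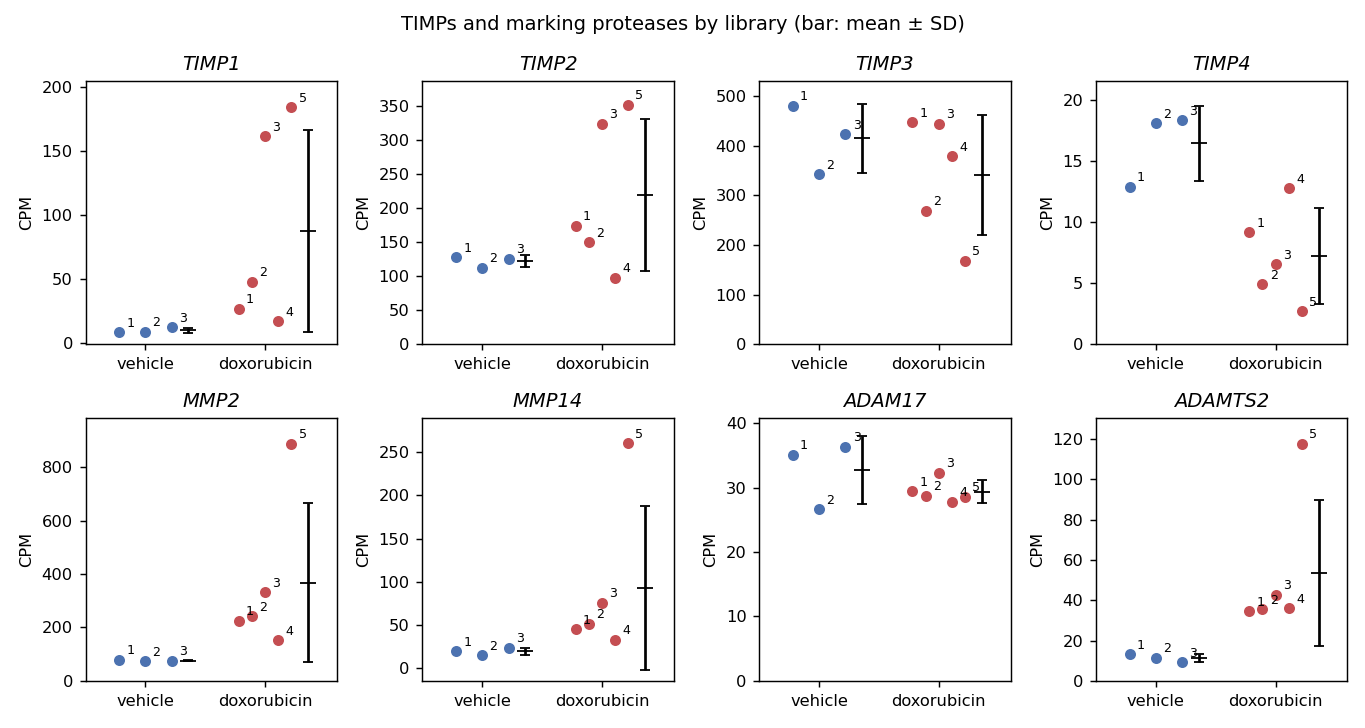
CPM of the 4 TIMPs and of MMP2, MMP14, ADAM17 and ADAMTS2 in each library (points, numbered by replicate), with the mean and SD of each group (bars, n = 3 vehicle and n = 5 doxorubicin). TIMP1, MMP2, MMP14 and ADAMTS2 show no overlap between groups with doxorubicin 5 highest, TIMP4 shows every doxorubicin point under the vehicle points, and TIMP2, TIMP3 and ADAM17 overlap.

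Among the MMPs, 8 of the 12 tested rose and 0 fell, with a median log2 fold change of 1.85. The count of 0 lower is from edgeR, and no MMP was lower at an unadjusted p under 0.05, in DESeq2 or in limma voom. MMP2, a gelatinase and the most abundant MMP transcript per kb here, was at 78.8, 73.0 and 75.8 CPM in vehicle and at 226, 242, 332, 151 and 888 CPM after doxorubicin. The vehicle libraries were close together, and every doxorubicin library lay above them, with doxorubicin 5 well above the rest. MMP2 rose 4.85-fold (log2 fold change 2.28, SE 0.56, adjusted p = 0.0199), and 3.14-fold without doxorubicin 5 (adjusted p = 0.00269). The call was lost without any of the 3 vehicle libraries (highest adjusted p 0.0821).

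MMP9, the other gelatinase, known from neutrophils and macrophages, had 0, 8 and 0 reads in vehicle and 20, 11, 26, 0 and 18 reads after doxorubicin. The groups overlapped, with no read in doxorubicin 4 and in 2 vehicle libraries. Its log2 fold change was 1.97 (SE 1.27) and did not pass (adjusted p = 0.27). Without vehicle 2 the vehicle libraries are all at 0, so that the fitted 6.78 (adjusted p = 0.094) gives no size. Of 6 neutrophil markers 3 were tested, 0 rose and 1 fell in edgeR, and their summed level was 6.26 to 8.93 CPM in vehicle and 4.88 to 11.4 CPM after doxorubicin.

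Membrane-type MMPs, which act at the cell surface, had 4 of 6 members higher. MMP14, the activator of MMP2, was at 19.7, 15 and 23.7 CPM in vehicle and at 45.3, 51.4, 75.8, 33.1 and 260 CPM after doxorubicin. No libraries overlapped, and doxorubicin 5 was far above the other 4. MMP14 rose 4.78-fold (log2 fold change 2.26, SE 0.69, adjusted p = 0.0414), and 2.64-fold without doxorubicin 5 (adjusted p = 0.0074). Without any 1 of the vehicle libraries it did not pass (highest adjusted p 0.129).

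MMP15, another membrane-type enzyme, was at 31.4, 37.3 and 36.3 CPM in vehicle and at 77.8, 99.0, 100.1, 111 and 58.3 CPM after doxorubicin. Here doxorubicin 5 was the lowest doxorubicin library, still above vehicle. MMP15 rose 2.55-fold (log2 fold change 1.35, adjusted p = 0.00704) and passed whichever library was left out. MMP24 rose 2.29-fold (adjusted p = 0.0103), from 3.40 to 4.14 CPM in vehicle to 6.60 to 10.3 CPM. MMP25, a membrane-type enzyme known from leukocytes, had 2, 1 and 3 reads in vehicle and 8, 12, 28, 18 and 22 reads after doxorubicin. It passed (log2 fold change 2.58, SE 0.64, adjusted p = 0.0199) on few reads. MMP16 (−0.18, adjusted p = 0.591) and MMP17 (0.54, adjusted p = 0.384) had overlapping groups; both fall outside the rule for named genes and were added after their values were seen.

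All 3 tested members of the remaining MMP class rose. MMP23B, a short membrane-anchored MMP, was at 1.86, 6.73 and 2.06 CPM in vehicle and at 18.5, 37.5, 85.2, 15.1 and 137 CPM after doxorubicin. Doxorubicin 3 and 5 were highest, as for TIMP1, and doxorubicin 4 lowest. MMP23B rose 16.5-fold (log2 fold change 4.04, SE 0.91, adjusted p = 0.0159), and 11-fold without doxorubicin 5. Without vehicle 2, the highest vehicle library, it was 29.8-fold. MMP23B did not pass without vehicle 1 (adjusted p = 0.0717), without vehicle 3 or without a read filter. MMP28, a secreted MMP, rose 4.11-fold (log2 fold change 2.04, adjusted p = 0.00807), from 5.19 to 6.52 CPM in vehicle to 12.6 to 35.2 CPM, whichever library was left out. MMP19 rose 3.33-fold (adjusted p = 0.0217), and 2.49-fold without doxorubicin 5.

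MMP11, a stromelysin that furin activates inside the cell, was at 47.5, 51.7 and 39.8 CPM in vehicle and at 146, 36.9, 32.3, 36.4 and 30.4 CPM after doxorubicin. Doxorubicin 1 was far above all other libraries and the other 4 were below all vehicle libraries. Its log2 fold change was 0.28 (adjusted p = 0.718) over all libraries and −0.45 (adjusted p = 0.0637) without doxorubicin 1.

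The interstitial collagenases and most stromelysins were hardly read. MMP7, MMP20, MMP27, MMP8, MMP1, MMP3, MMP12 and MMP13 lie side by side on chromosome 9, from 33214590 to 33616700 (402 kb). None of these 8 was tested, and no library had more than 8 reads of any of them. Together they had 12 reads in the 3 vehicle libraries and 31 in the 5 doxorubicin libraries. MMP1, MMP8 and MMP13, the collagenases that cut fibrillar collagen, were therefore not detectable above a few reads at this depth. MMP2 and MMP14, which can also cut fibrillar collagen, were read at the levels given above.

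Among the ADAMs, 4 of the 12 tested rose and 0 fell in edgeR, with a median log2 fold change of 0.33. Of the 12, 1 was lower at an unadjusted p under 0.05, 0 in DESeq2 and 4 in limma voom. ADAM12, an ADAM of mesenchymal cells, had 0, 0.416 and 0.356 CPM in vehicle and 1.86, 6.16, 9.43, 2.70 and 11.5 CPM after doxorubicin. The vehicle libraries rested on at most 6 reads each and all lay under the doxorubicin libraries. ADAM12 rose by 4.58 on the log2 scale (SE 0.91, adjusted p = 0.0109), a size that depends on those few vehicle reads; without vehicle 3 it did not pass (adjusted p = 0.0538).

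ADAM19, which sheds neuregulins among other proteins and is needed in heart development, was at 22.3, 17.4 and 27.0 CPM in vehicle and at 49.7, 50.1, 71.9, 39.4 and 61.5 CPM after doxorubicin. The groups were apart and the doxorubicin libraries were within a narrow range. ADAM19 rose 2.45-fold (log2 fold change 1.29, SE 0.23, adjusted p = 0.00812), whichever library was left out. ADAM33 rose 3.59-fold (adjusted p = 0.0164). ADAM28, added after its values were seen, rose 5.0-fold (adjusted p = 0.0264).

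The main general sheddases did not rise. ADAM10, which cuts Notch receptors and N-cadherin, was at 44.2, 27.3 and 38.5 CPM in vehicle and at 27.9, 24.4, 24, 27.5 and 14.5 CPM after doxorubicin. Doxorubicin 1 and 4 lay just above vehicle 2, and doxorubicin 5 was lowest. The log2 fold change was −0.63 (SE 0.23) and did not pass (adjusted p = 0.0724); without doxorubicin 5 it was −0.50 and passed (adjusted p = 0.0479). ADAM17, which releases tumour necrosis factor, was at 35.1, 26.6 and 36.3 CPM in vehicle and at 29.4, 28.7, 32.3, 27.8 and 28.6 CPM after doxorubicin. Its groups overlapped (log2 fold change −0.15, SE 0.15, adjusted p = 0.452), and the sign turned to 0.20 with scaling by total counts only.

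ADAMs without an active protease site, which act as binding proteins, had 0 of 3 tested members called by edgeR (0 at an unadjusted p under 0.05, 0 in DESeq2, and 1 higher and 2 lower in limma voom). ADAM22, a partner of potassium channel complexes in nerve, was at 20.4, 15.7 and 16.4 CPM in vehicle and at 17.1, 2.58, 1.82, 7.52 and 0.150 CPM after doxorubicin. Doxorubicin 1 stood at the vehicle level while doxorubicin 5 had almost none. With that spread the log2 fold change of −1.59 (SE 0.91) did not pass (adjusted p = 0.218). Without doxorubicin 1 it was −2.54 and passed (adjusted p = 0.0464). ADAM11 (0.77, adjusted p = 0.141) and ADAM23 (−0.94, adjusted p = 0.142) did not pass. ADAM7, known from the epididymis, had 1, 2 and 6 reads in vehicle and 0 in all 5 doxorubicin libraries, too few to test.

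Among the ADAMTS genes, 6 of the 17 tested rose and 0 fell in edgeR (1 lower at an unadjusted p under 0.05, 0 in DESeq2, 2 in limma voom), with a median log2 fold change of 0.71. The procollagen N-proteinases trim the amino end of fibrillar procollagens before fibrils form, and 2 of 3 rose. ADAMTS2, the main enzyme for type I procollagen, was at 13.2, 11.5 and 9.39 CPM in vehicle and at 34.7, 35.6, 42.8, 36.1 and 118 CPM after doxorubicin. Doxorubicin 1 to 4 lay close together, well above vehicle, and doxorubicin 5 stood far above them. ADAMTS2 rose 4.69-fold (log2 fold change 2.23, SE 0.46, adjusted p = 0.0121), and 3.28-fold without doxorubicin 5 (adjusted p = 0.000928). ADAMTS14 rose 2.13-fold (adjusted p = 0.0211). ADAMTS3 was at 0.04 on the log2 scale (adjusted p = 0.944), whose sign turned in limma voom and without several single libraries.

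Of the 7 ADAMTS proteoglycanases, which cut aggrecan or versican, 2 rose. ADAMTS8, chiefly known from lung and heart, was at 2.00, 0.485 and 0.498 CPM in vehicle and at 12.9, 13.2, 39.1, 5.03 and 18.8 CPM after doxorubicin. The groups were apart, and doxorubicin 3 was the highest. ADAMTS8 rose 17.8-fold (log2 fold change 4.16, SE 0.78, adjusted p = 0.00952), and 35.6-fold in the fit with the highest value, which leaves out the highest vehicle library, vehicle 1. Without vehicle 3 it did not pass (adjusted p = 0.0524). ADAMTS15, 14.5 kb away on chromosome 9 on the opposite strand, was at 0.06 on the log2 scale (adjusted p = 0.897).

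ADAMTS4 was at 2.29, 2.29 and 0.853 CPM in vehicle and at 3.60, 4.14, 8.41, 4.25 and 6.25 CPM after doxorubicin, with no overlap. It rose 2.94-fold (adjusted p = 0.028). ADAMTS5, known as a main aggrecanase of cartilage, was at 8.07, 8.81 and 7.61 CPM in vehicle and at 8.79, 1.21, 2.66, 3.16 and 3.85 CPM after doxorubicin. Doxorubicin 1 was at the vehicle level and the other 4 were below it (log2 fold change −1.05, adjusted p = 0.136). ADAMTS1, which lies 67.1 kb from ADAMTS5 on chromosome 13, had 0.27 (adjusted p = 0.361). ADAMTS20 had −1.49 (adjusted p = 0.0979), and −2.27 without doxorubicin 4, where it passed (adjusted p = 0.0106). ADAMTS1, ADAMTS5 and ADAMTS15 fall outside the rule for named genes and were added after their values were seen.

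Of the remaining ADAMTS genes, ADAMTS12 rose 2.48-fold (adjusted p = 0.0147), from 6.93 to 9 CPM in vehicle to 13.2 to 30.5 CPM. ADAMTS17, linked to short stature and eye defects when mutated, was at 0.286, 0 and 0.711 CPM in vehicle and at 2.51, 2.78, 5.74, 2.85 and 4.20 CPM after doxorubicin. It rose by 3.42 on the log2 scale (SE 0.75, adjusted p = 0.0136) on few vehicle reads. Its fold was 10.7, and 7.16 to 24.4 when single libraries were left out, highest without vehicle 3, and it did not pass without vehicle 1 (adjusted p = 0.0707). ADAMTS10, a fibrillin-binding protease, lay higher in every doxorubicin library (11.9 to 24.1 CPM against 9.15 to 11.6 CPM) and did not pass (log2 fold change 0.71, adjusted p = 0.0675).

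The ADAMTSL proteins, which have no protease domain and several of which bind fibrillin microfibrils, had 3 of 5 members higher and 1 lower. ADAMTSL2, which binds latent TGF-beta binding protein, was at 3.43, 3.81 and 4.20 CPM in vehicle and at 10.4, 24.4, 28.1, 14.0 and 24 CPM after doxorubicin. The vehicle libraries were tightly grouped and all doxorubicin libraries were above them. ADAMTSL2 rose 5.28-fold (log2 fold change 2.40, SE 0.35, adjusted p = 0.00563), whichever library was left out, and had the smallest p of all members. ADAMTSL4 rose 1.96-fold (adjusted p = 0.0162) and ADAMTSL3 1.94-fold (adjusted p = 0.0362).

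ADAMTSL1 was the only member that fell. It was at 67.0, 55.3 and 65.3 CPM in vehicle and at 47.4, 40.1, 31.6, 41.8 and 18.9 CPM after doxorubicin. Every doxorubicin library was below every vehicle library, with doxorubicin 5 lowest. ADAMTSL1 changed by −0.80 on the log2 scale (SE 0.26, adjusted p = 0.0476), a p close to the threshold. The call was lost with scaling by total counts only, and without any 1 of the 3 vehicle libraries or of doxorubicin 2, 3 and 4 (highest adjusted p 0.153, without vehicle 1).

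**Figure D3:**
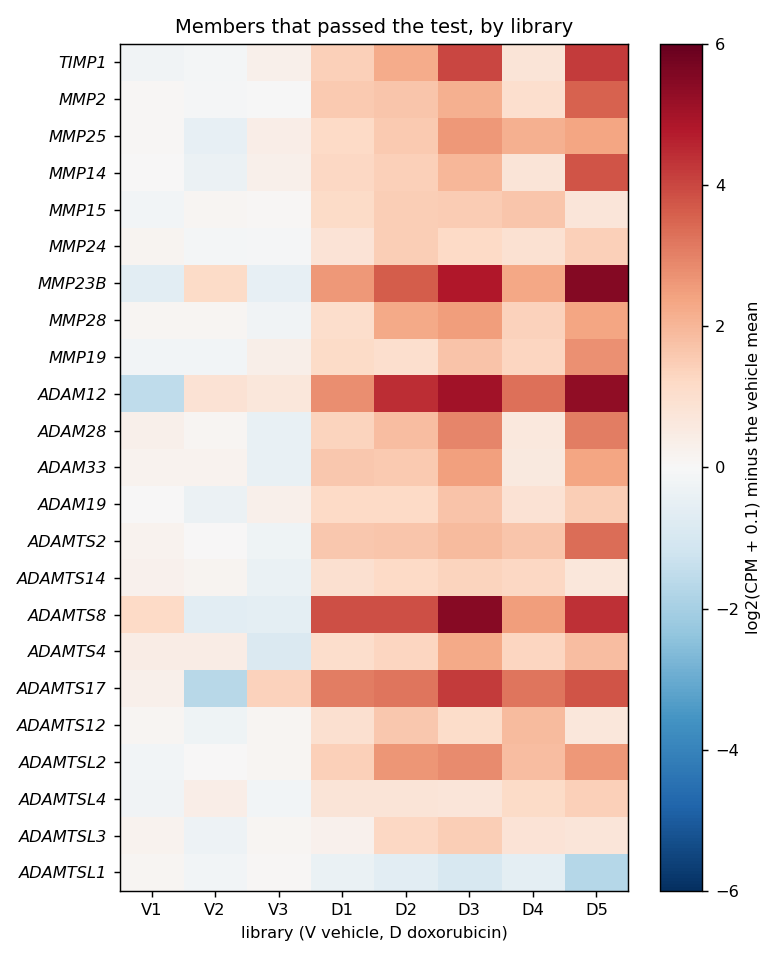
Log2 of CPM plus 0.1 in each library, minus the vehicle mean, for the 23 members that passed the test (rows) in vehicle 1 to 3 and doxorubicin 1 to 5 (columns); red is above and blue below the vehicle mean. Doxorubicin 3 and 5 hold the deepest red in most rows, MMP15 and ADAMTS12 are palest in doxorubicin 5, and ADAMTSL1 is the only blue row.

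The 22 risen members did not rank the doxorubicin libraries alike. Doxorubicin 3 was the highest of the 5 for 10 members and doxorubicin 5 for 9, while doxorubicin 4 was highest for 2, doxorubicin 2 for 1 and doxorubicin 1 for 0. The lowest was doxorubicin 1 for 9 members, doxorubicin 4 for 8 and doxorubicin 5 for 3, which were MMP15, ADAMTS12 and ADAMTS14. Without doxorubicin 5, 22 members were higher and 3 lower of 49 tested, while 32.3% of all tested genes passed. Leaving out a vehicle library cost more calls, with 7, 12 and 5 members higher without vehicle 1, 2 and 3. The loss was not particular to the members. Over all tested genes 4.19%, 12.7% and 4.61% passed in those fits, against 24.9% with all libraries. Of the 23 members that passed, ADAM19, ADAMTSL2, MMP15 and MMP28 did so whichever library was left out, and the other 19 were lost in at least 1 such fit.

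Proteases were set against their inhibitors in 3 ways. By count, 18 of the 38 tested members listed as active proteases rose and 0 fell in edgeR (2 lower at an unadjusted p under 0.05, 0 in DESeq2, 4 in limma voom), with a median log2 fold change of 1.14. Of the 4 TIMPs, 1 rose and 0 fell (1 lower at an unadjusted p under 0.05, in DESeq2 and in limma voom), with a median of 0.28. The protease list holds all 8 members that were tested with the help of doxorubicin reads, 4 of them among the 18 that rose. No TIMP is such a gene, so the filter favours higher counts among the proteases. These counts describe the lists, and a difference between them was not tested.

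By summed level per kilobase of the deposited gene length, the MMPs were at 50.6, 52.3 and 50.5 CPM per kb in vehicle and at 142, 158, 229, 108 and 480 CPM per kb after doxorubicin. The TIMPs were at 153, 120.5 and 146 CPM per kb in vehicle and at 183, 167, 411, 135 and 390 CPM per kb after doxorubicin. The MMP sums did not overlap, whereas the TIMP sum of doxorubicin 4 lay within the vehicle range. The ratio of the MMP sum to the TIMP sum was 0.331, 0.434 and 0.345 in vehicle and 0.778, 0.948, 0.556, 0.801 and 1.23 after doxorubicin. Every doxorubicin library had a higher ratio than every vehicle library, and only in doxorubicin 5 did the MMP sum exceed the TIMP sum. Doxorubicin 3 had the lowest ratio of its group. Without MMP2 the ratios were 0.164 to 0.238 in vehicle and 0.294 to 0.492 after doxorubicin, still apart. With all listed proteases in place of the MMPs, the ratios were 0.847 to 0.982 and 0.815 to 1.49, and overlapped through doxorubicin 3. No test is given for these sums.

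The makeup of the inhibitor sum differed between the groups. TIMP3 made up 61.5% to 67.9% of it in vehicle and 52.9%, 34.9%, 23.4%, 60.8% and 9.33% in doxorubicin 1 to 5. TIMP1 made up 8.02% to 12% in vehicle and 20.5%, 40.3%, 55%, 17.9% and 66.1% after doxorubicin. TIMP2 kept 19.7% to 25.7% over all 8 libraries. MMP2 made up 45.3% to 50.5% of the MMP sum in vehicle and 45.5% to 60.0% after doxorubicin. The share of TIMP1 rests on a deposited gene length of 716 bases, against 3697 for TIMP2 and 4625 for TIMP3. What such lengths cover is unknown here, and another length would move these shares and the ratios.

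**Figure D4:**
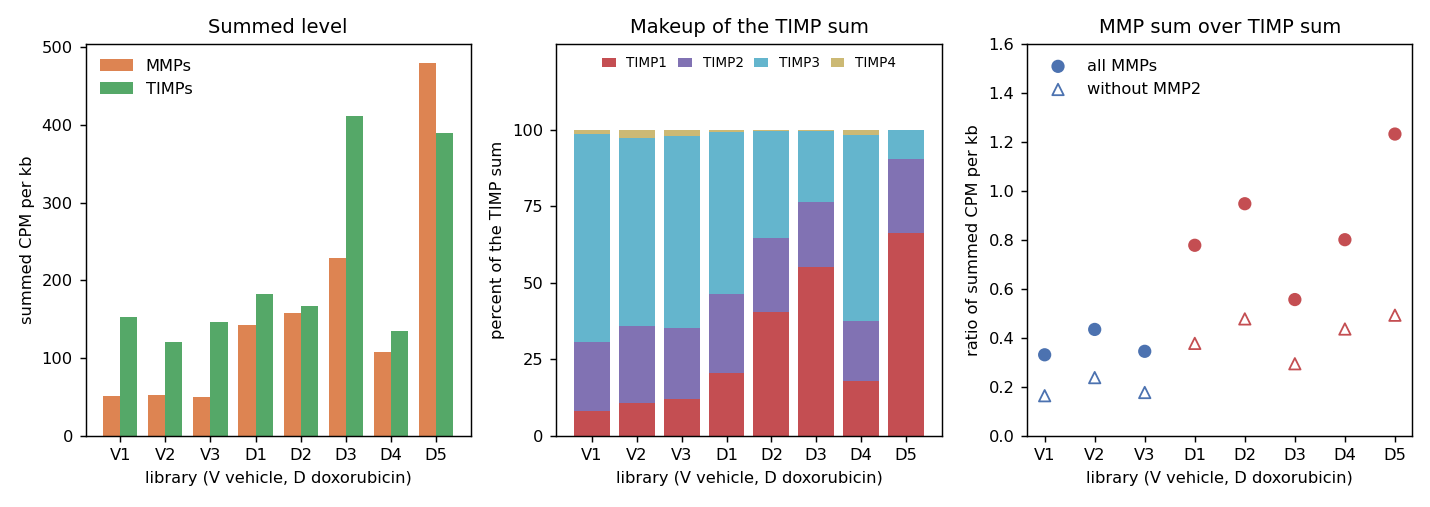
Left, summed CPM per kb of MMPs and TIMPs in each library (bars, V vehicle and D doxorubicin); middle, the share of each TIMP in the TIMP sum in percent; right, the ratio of the MMP sum to the TIMP sum, with all MMPs (circles) and without MMP2 (triangles). The ratio is 0.331 to 0.434 in vehicle and 0.556 to 1.23 after doxorubicin, and the TIMP1 share is widest in D3 and D5.

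Within single libraries, 7 pairs of a protease and an inhibitor known to bind it were compared as log2 ratios of their counts, which need no scaling between libraries. The ratio of MMP2 to TIMP2 was −0.70, −0.62 and −0.73 in vehicle and 0.38, 0.69, 0.03, 0.63 and 1.33 after doxorubicin. Counts of MMP2 were thus under those of TIMP2 in every vehicle library and above them in every doxorubicin library. The difference of 1.30 had p = 0.0357 in a two-sided exact permutation test, the smallest p that the 56 splits of 3 and 5 libraries allow, and 0.0625 after Benjamini-Hochberg adjustment over the 7 pairs. Without doxorubicin 5 the difference was 1.12.

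The ratios of MMP14 to TIMP2 (difference 1.15) and of ADAMTS4 to TIMP3 (1.95) were likewise higher in every doxorubicin library, and that of ADAM10 to TIMP1 was lower in every one (−3.17). Each of these had p = 0.0357 (exact permutation, adjusted p = 0.0625), and without doxorubicin 5 the differences were 0.88, 1.64 and −2.59. The ratios of MMP9 to TIMP1 (difference −0.21, exact permutation p = 0.964), ADAM17 to TIMP3 (0.21, p = 0.679) and ADAMTS5 to TIMP3 (−0.97, p = 0.25) overlapped between the groups. No pair passed after adjustment, which at this number of libraries would take 6 of the 7 at the smallest p. The pairs share TIMP1, TIMP2 or TIMP3, so they are not independent of each other.

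**Figure D5:**
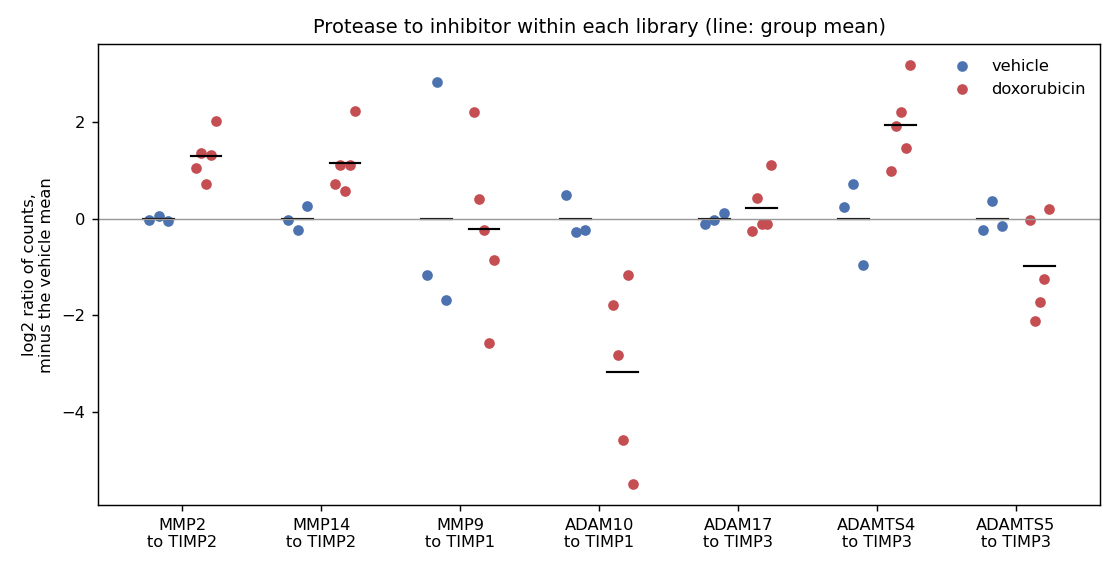
Log2 ratio of protease to inhibitor counts in each library (points), minus the vehicle mean of that pair, with group means (lines), for 7 pairs; blue is vehicle (n = 3) and red is doxorubicin (n = 5). Red points are all above blue for MMP2 to TIMP2, MMP14 to TIMP2 and ADAMTS4 to TIMP3, all below for ADAM10 to TIMP1, and mixed for the other 3 pairs.

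Ordered by mean level per kb, the vehicle hearts had TIMP3 first (89.9 ± 15 CPM per kb), then TIMP2 (33.0 ± 2.26), MMP2 (24.6 ± 0.938), ADAM10 (16.3 ± 3.84), TIMP1 (14.2 ± 2.93) and ADAM9 (11.3 ± 2.05), all SD with n = 3. The vehicle library values of ADAM10 and TIMP1, and of TIMP1 and ADAM9, overlapped. After doxorubicin the order was TIMP1 (122 ± 111 CPM per kb), MMP2 (119 ± 96.7), TIMP3 (73.9 ± 26.2), TIMP2 (59.4 ± 30.3), MMP23B (37.8 ± 33.5) and MMP14 (22.9 ± 23.2), with n = 5. Means of neighbours in that order differed by less than the larger SD of the 2. The first place changed from library to library. TIMP3 led in doxorubicin 1 (96.9 CPM per kb) and 4 (82.0), MMP2 in doxorubicin 2 (78.5) and 5 (288). TIMP1 led only in doxorubicin 3 (226), and its high mean rests on doxorubicin 3 and 5 (258). MMP23B was at 2.28 ± 1.77 CPM per kb in vehicle.

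No pair of members that passed lay within 200 kb of each other. The only pairs that close with both genes tested were ADAMTS1 with ADAMTS5 and ADAMTS8 with ADAMTS15. The absence of such a pair therefore says little on how the risen members are spread. Of the 66 members, 25 overlap another gene of the table, 7 of the 23 that passed among them, and reads shared by such pairs cannot be told apart where the strand was not used or where both genes lie on the same strand.

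Genes that work with these enzymes were read as well, from lists chosen with earlier results of these data known. The counts of each list stand beside 13.6% higher and 11.3% lower over all tested genes. Of 8 other inhibitors and clearance receptors, 3 rose, 1 fell and 4 did not pass (median log2 fold change 0.38). LRP1, the receptor that takes up MMP2, MMP9 and several ADAMTS proteases for degradation, was at 56.5 to 87.8 CPM in vehicle and 140.2 to 306 CPM after doxorubicin and rose (1.58, adjusted p = 0.0116). A2M, a plasma-type trap for proteases of all classes, was at 103 to 146 CPM and 16.4 to 63.6 CPM and fell (−1.97, adjusted p = 0.0119). The testicans SPOCK1 (2.12, adjusted p = 0.0247) and SPOCK3 (2.22, adjusted p = 0.0291) rose from under 2 CPM, and SPOCK3 was at 1.57 without doxorubicin 3 (adjusted p = 0.0267). RECK, a membrane inhibitor of MMPs added after its values were seen, had −0.38 (adjusted p = 0.297).

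Of 17 tested activators and trafficking partners, 8 rose, 1 fell and 8 did not pass (median 0.80). The convertase PCSK7 (0.95, adjusted p = 0.00776) rose, as did FRMD8 (0.91, adjusted p = 0.0104) and RHBDF2 (1.21, adjusted p = 0.0116), which carry ADAM17 to the cell surface and keep it there. TSPAN15, a tetraspanin that directs ADAM10, also rose (1.5, adjusted p = 0.0119). ADAM10 and ADAM17 themselves did not. Among the inhibitors of plasmin formation, SERPINE2 (2.00, adjusted p = 0.0136) rose and SERPINB2 (0.25, adjusted p = 0.541) did not pass.

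Of 11 other tested matrix proteases and enhancers, 6 rose and 0 fell in edgeR (0 lower at an unadjusted p under 0.05, in DESeq2 and in limma voom), with a median of 0.99. They include the cathepsins CTSL (3.07, adjusted p = 0.0136) and CTSB (0.99, adjusted p = 0.0214), HTRA1 (2.19, adjusted p = 0.0357) and BMP1 (1.25, adjusted p = 0.0363), which trims the carboxyl end of procollagens. HTRA1 was at 1.54 without doxorubicin 5 (adjusted p = 0.0194), and CTSL at 3.85 without vehicle 1 (adjusted p = 0.0438). The list of 17 matrix substrates had 11 higher and 0 lower (0 lower by the same other counts), with a median of 2.74. COL4A2 (1.71, adjusted p = 0.00437) and COL4A1 (1.22, adjusted p = 0.00952), of basement membrane, COL5A1 (3.64, adjusted p = 0.00715), of fibrils, and ELN (2.74, adjusted p = 0.00952), elastin, had the smallest p.

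Of 16 tested membrane proteins that ADAMs shed, 2 rose, 1 fell and 13 did not pass (median 0.30). Neither count exceeds the shares over all tested genes (13.6% higher and 11.3% lower), so they show nothing particular to this list. CD44, a hyaluronan receptor, rose (2.26, adjusted p = 0.0098), as did SDC1, a heparan sulfate proteoglycan (5.24, adjusted p = 0.0278), which rests on few vehicle reads. SDC1 was at 32.2 CPM in doxorubicin 5 and at most 10.7 CPM in the other 4, and its log2 fold change was 4.10 without doxorubicin 5 (adjusted p = 0.0199), 4.66 without vehicle 2 (0.0843) and 7.91 without vehicle 1 (0.0616). CDH2, the N-cadherin of cardiomyocyte junctions, fell (−0.73, adjusted p = 0.0438). APP had −0.58 (adjusted p = 0.0577). Of the genes of these 6 lists named as risen or fallen, PCSK7, COL4A2 and COL5A1 passed whichever library was left out, and each of the others was lost without at least 1 vehicle library.

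Lists of cell type markers differed in how far they rose after doxorubicin. Over all tested genes 13.6% rose and 11.3% fell, and 1 gene in a list of 7 or 8 markers is near those shares. Of 6 activated fibroblast markers 3 rose, and their summed level was 136 to 319 CPM in vehicle and 490, 620, 1782, 167 and 6624 CPM in doxorubicin 1 to 5. Doxorubicin 5 and 3 were highest there too, and the sum of doxorubicin 4 lay within the vehicle range. ACTA2 made up much of the vehicle sum, at 256 CPM in vehicle 1. The markers did not move alike in doxorubicin 4. POSTN (27.1 CPM against at most 19.1 CPM in vehicle) and CTHRC1 (1.40 CPM against at most 0.929 CPM) were above every vehicle library there. FAP and ACTA2 lay within the vehicle range, and CILP (24.5 CPM against at least 30.03 CPM) was below every vehicle library. CILP was below every vehicle library in doxorubicin 5 as well. COMP, another of those markers, had no read in vehicle and 1 read in doxorubicin 4. General fibroblast markers summed to 1691 to 1817 CPM in vehicle and 1128 to 2197 CPM after doxorubicin, with 1 of 8 higher and 1 lower. Macrophage markers summed to 136 to 180 CPM and 236 to 719 CPM, with 6 of 9 higher, and T and NK cell markers to 9.86 to 14.6 CPM and 20.4 to 44.7 CPM, with 6 of 7 higher. Endothelial markers summed to 983 to 1201 CPM in vehicle and 478 to 1142 CPM after doxorubicin, with 1 of 7 higher. Smooth muscle and pericyte markers summed to 673 to 1119 CPM and 550 to 1093 CPM, with 2 of 7 higher and 1 lower. Of 4 tested mast cell markers 0 passed in edgeR, and of 3 tested adipocyte markers 1 fell. The part of these cell types in the members' changes was not tested.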

How the data were processed

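Heart RNA of 8 wild-type miniature pig samples (3 vehicle, 5 doxorubicin) was sequenced with a SMARTER mRNA kit, per the labels. The authors deposited raw counts per gene for each sample. They also deposited gene lengths in bases. The aligner, the counter and its strand setting were not given in the sources used here. Coordinates of all 66 members equalled those of RefSeq on Sscrofa11.1.

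The deposited counts were fitted with edgeR 4.0.16 under R 4.3.3 (filterByExpr with minimum count 10 and minimum total 15, TMM scaling, robust quasi-likelihood test, treatment alone as covariate, two-sided, Benjamini-Hochberg adjustment over 14938 genes). SE follow from each fold change with its F value. CPM values divide counts by TMM-scaled library size, and CPM per kb divide them by the deposited length. Pair ratios are log2 of counts plus 0.5. The fit was also run on simulated counts without outlying libraries, whose outcome is not given here. Alternatives were RLE factors, library size only, TMM without mitochondrial, haemoglobin and top genes, other filters, DESeq2 1.42.0, limma 3.58.1 voom, a replicate block, 5 added to counts in ratios, and leaving out each library. Figures used matplotlib 3.10.9.

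Members and lists were chosen with earlier results of these data known. Genes named by rule were the TIMPs, MMP2, MMP14, ADAMTS2, ADAM10, ADAM17 and MMP9, up to 3 further tested members per role and up to 4 per pathway list with the smallest p, and members read in every library of 1 group and none of the other. Promoter, transcript and protein sequences are not used here. A gene of the pathway lists is not reported here.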

Additional observations from a re-analysis of the deposited data

Results flagged for a closer look

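Among 35 named members tested for a library far from the rest of the doxorubicin group, 4 were picked out, and chance alone picks out about 1 in 20 groups. ADAMTS2 was at 118 CPM in doxorubicin 5, where the nearest library had 42.8 CPM. ADAM10 was at 14.5 CPM in doxorubicin 5, under the next lowest library at 24 CPM. MMP9 was at 0 CPM in doxorubicin 4, and the next lowest library was at 0.556 CPM. MMP11 was at 146 CPM in doxorubicin 1, where the nearest library had 36.9 CPM. The cause of these values was not tested.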

How the results depend on the processing

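Over all genes 3714 passed, 8051 in limma voom, and 649 to 4737 when single libraries were left out. The 22 members that rose were 5 to 24 when single libraries were left out, fewest without vehicle 3. The count of 1 member lower was 0 with library size only, 2 without a filter, 2 in DESeq2 and 8 in limma voom, and 0 to 4 when single libraries were left out. With library size only the median over all tested genes moved from 0.02 to 0.38 and that of the members from 0.81 to 1.18, with 25 higher. Signs turned for TIMP3 (0.075) and ADAM17 (0.20) with library size only, for ADAMTS3 in limma voom (−0.20) and without single libraries (−0.20 to 0.26), and for MMP11 without doxorubicin 1 (−0.45; range −0.45 to 0.44). The difference of the MMP9 to TIMP1 log2 ratio ran from −1.05 to 1.21 and that of ADAM17 to TIMP3 from −0.0091 to 0.33 when single libraries were left out. Without a vehicle library the smallest exact permutation p is 0.0952, and without a doxorubicin library 0.0571. The cause of these changes was not tested, except that fits without a library have fewer samples.

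The labels do not say whether replicate numbers pair the samples. Deviations of libraries with the same number correlated at 0.0425, 0.00205 and −0.00312, and those with different numbers at −0.120 to 0.130. So few values cannot exclude a pairing. With the replicate number as a block, in which doxorubicin 4 and 5 have no partner, 3638 genes passed, 20 members were higher and 3 lower, TIMP4 among the latter (−1.29, adjusted p = 0.0237 in edgeR). ADAMTS3 turned to −0.12 and the MMP9 to TIMP1 difference to 0.80 under the block.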
